A study of Drosophila melanogaster with 6 samples.

Results

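Transcripts of 10 enzyme genes of the methionine and S-adenosylmethionine (SAM) cycle were examined among the 17753 genes counted in adult heads of Drosophila melanogaster. The genes were chosen by symbol, all 10 were found in the count table, and all 10 passed the filter on low counts. They are Sam-S, Ahcy, AhcyL1, AhcyL2, SamDC, CG10621, Bhmt, Cbs, Adi1 and Adk2. RNA was sequenced from 3 libraries of wBerlin, the control stock, and 3 libraries of Kdm3 KO, a knockout of the histone demethylase gene Kdm3. Each library was made from 50 heads of flies 2 to 7 days after eclosion, kept at 25 °C, and ribosomal RNA was depleted. The sources used here do not give the sex of the flies, the nature of the knockout allele, whether it is 1 line, or whether the stocks share a genetic background. Any other genetic difference between the stocks therefore cannot be told apart from loss of Kdm3. The labels call the libraries biological replicates without saying whether they came from separate cultures, so p-values measure the spread between these samples. The study asks about the one-carbon cycle and methylation, and this comparison gives the state of the enzyme transcripts that make and renew the methyl donor.

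SAM is the methyl donor for histone, DNA, RNA and metabolite methylation. SAM synthetase makes it from methionine and ATP, methyltransferases convert it to S-adenosylhomocysteine, and S-adenosylhomocysteine hydrolase splits that product, which inhibits many methyltransferases, into homocysteine and adenosine. Homocysteine is then either methylated back to methionine or drawn off to cystathionine and cysteine, and adenosine is removed by phosphorylation. A side branch decarboxylates SAM for polyamine synthesis, and the methionine salvage pathway returns the sulfur-containing by-product of that branch to methionine.

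The targeted gene was low in all 3 knockout libraries. Levels are given as CPM, counts scaled to library size with the trimmed mean of M values (TMM), and always in the order of replicates 1 to 3. Kdm3 was at 32.5, 30.1 and 28.7 CPM in the wBerlin libraries and at 3.86, 0.642 and 0.710 CPM in the knockout libraries. Total counts lay between 19850981 and 28237382 per library. Each member had between 523 and 11747 counts in every library. The neuronal and photoreceptor genes checked, among them elav, nSyb, norpA and ninaE, were detected in both groups, as the label head requires. Kdm3 KO replicate 2 stood apart in gut transcripts: 19 gut markers, of which 15 could be tested, summed to 177 CPM there and to 32.3 to 45.0 CPM in the other 5 libraries. It stood apart in flight muscle transcripts too, with TpnC4, Act88F and fln at 87.8, 1276 and 14.4 CPM, where no other library exceeded 2.26, 247 and 1.01 CPM. It did not stand apart in the sum of the 19 muscle markers listed, 32252 CPM there and 22260 to 50812 CPM in the other libraries. None of the 10 genes overlaps another annotated gene in the Ensembl annotation of BDGP6.54, so the unstated strand setting of the counting does not bear on them.

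Of the 10 genes, 4 rose in Kdm3 KO heads and 0 fell by edgeR's quasi-likelihood test at an adjusted p under 0.05, where 2.15% of the 14069 tested genes rose and 0.917% fell. The genes that rose were CG10621, Adi1, Adk2 and SamDC. Their places in the pathway differ: homocysteine methylation, methionine salvage, adenosine removal and SAM decarboxylation. The median log2 fold change (Kdm3 KO over wBerlin) of the 10 was 0.48, beside 0.04 over all tested genes, and 7 of the 10 were positive. Of the 10, 6 had every knockout library above every control library and 1 had every knockout library below, where 9.35% and 9.33% of tested genes did so. At an unadjusted p under 0.05, 6 were higher and 1 was lower (7.14% and 7.51% of tested genes). By DESeq2 6 rose and 0 fell, beside 4.65% and 3.64% of genes, and by limma voom 4 rose and 0 fell, beside 1.99% and 0.782%.

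The call of CG10621 held in all 15 other settings tried. Those of Adi1, Adk2 and SamDC ended when any 1 library other than Kdm3 KO replicate 2 was left out, with adjusted p of 0.0515 to 0.118, 0.0597 to 0.113 and 0.0739 to 0.141. In bulk heads, a larger share of cells that express a gene and more RNA per cell cannot be told apart.

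**Figure D1:**
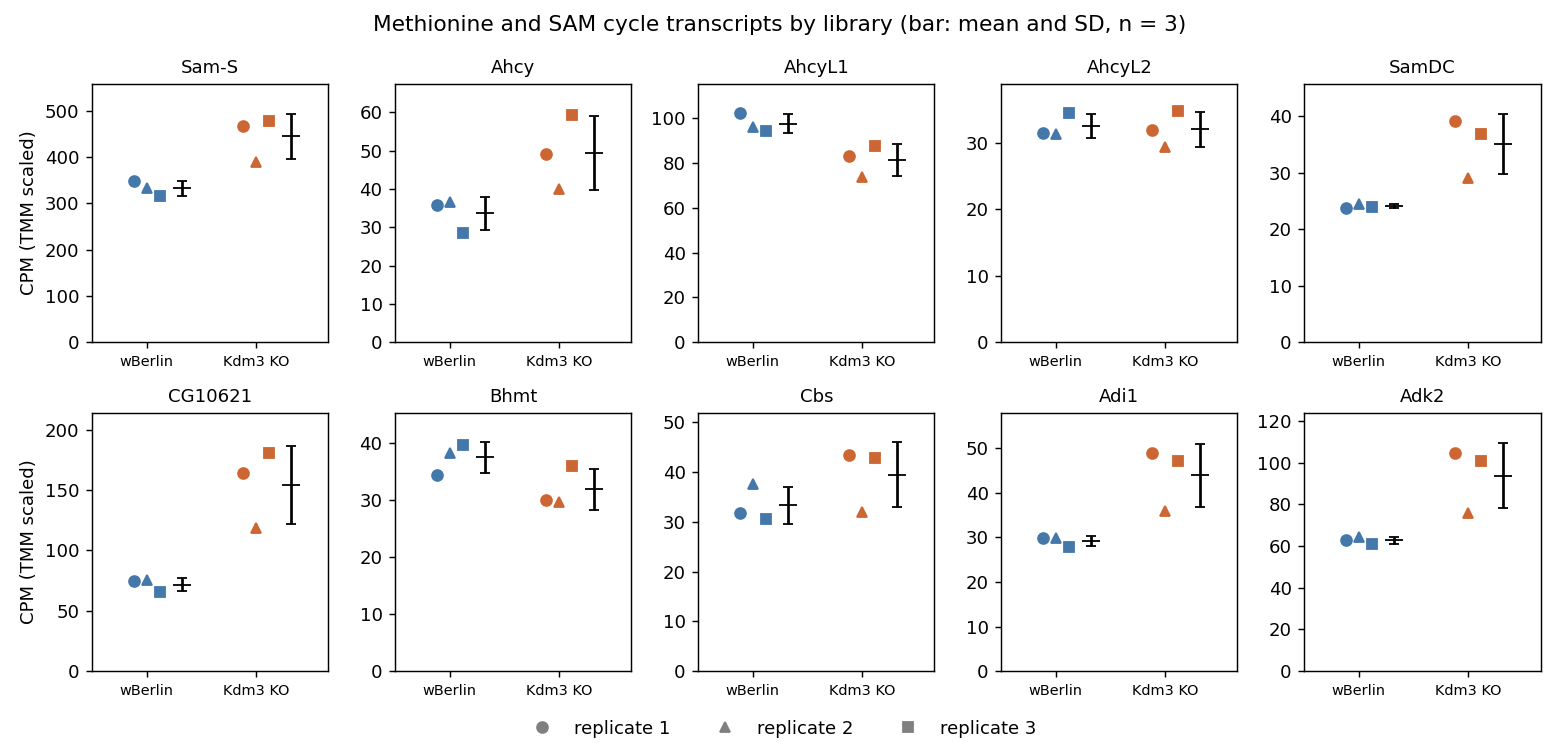
TMM-scaled CPM (vertical axis, from 0) of each of the 10 genes in the 3 wBerlin and 3 Kdm3 KO libraries, with the symbol giving the replicate and the bar the mean and SD. CG10621 shows the widest separation, 65.3 to 75.3 against 118 to 180 CPM, and Kdm3 KO replicate 2 is the lowest knockout library in all 10 panels, 8 with total count scaling.

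SAM synthesis is the task of Sam-S (FBgn0005278, arm 2L, 106903 to 114432, plus strand, 12 annotated transcripts). Its level was 348, 333 and 316 CPM in wBerlin and 467, 389 and 478 CPM in Kdm3 KO. All knockout libraries lay above all control libraries, the nearest 2 differing 1.12-fold. The fitted log2 fold change was 0.42 (SE 0.11, 95% interval 0.17 to 0.67), and it did not pass the test (unadjusted p = 0.00434, adjusted p = 0.0890, edgeR). It passed with upper quartile or total count scaling, with a filter of 5 CPM, by DESeq2, and without Kdm3 KO replicate 2 (adjusted p 0.0138, 0.0115, 0.0120, 0.00210 and 0.0121). Kdm3 KO replicate 2, at 1.17 times the wBerlin mean, lay below replicates 1 and 3, at 1.41 and 1.44 times. Scaled by total counts alone, the 3 knockout libraries held 459, 427 and 450 CPM and lay closer together.

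The genes whose profile over the 6 libraries was closest to that of Sam-S, by Euclidean distance of mean-centred log2 CPM, were path, maf-S and pn, at distances of 0.0682, 0.0726 and 0.0789. The gene path was at 321, 314 and 291 CPM in wBerlin and 444, 348 and 450 CPM in Kdm3 KO, and none of the 3 passed the test (adjusted p 0.112, 0.0540 and 0.0778, edgeR). None of them is in the lists of pathway genes used here.

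S-adenosylhomocysteine hydrolysis involves Ahcy (FBgn0014455, arm X, 15450261 to 15453167), the hydrolase, and its relatives AhcyL1 (FBgn0035371, arm 3L, 2768466 to 2772325) and AhcyL2 (FBgn0015011, arm 3R, 16978439 to 16982158). The mammalian relative IRBIT, whose name RefSeq lists as a synonym of AhcyL1, binds the inositol trisphosphate receptor and lacks hydrolase activity. Ahcy was at 35.7, 36.5 and 28.6 CPM in wBerlin and 49.2, 39.9 and 59.2 CPM in Kdm3 KO. The groups did not overlap, although Kdm3 KO replicate 2 was 1.09 times the highest control library. The log2 fold change was 0.56 (SE 0.15, 95% interval 0.21 to 0.90) and did not pass (adjusted p = 0.0955, edgeR); it passed with upper quartile or total count scaling, with the 5 CPM filter, by DESeq2 and without Kdm3 KO replicate 2 (0.0471, 0.0420, 0.0443, 0.0110 and 0.0280).

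AhcyL1 lay on the other side of 0. Its level was 102, 96.1 and 94.3 CPM in wBerlin and 83.0, 73.7 and 87.7 CPM in Kdm3 KO, every knockout library below every control library. The log2 fold change was −0.26 (SE 0.10, 95% interval −0.47 to −0.05), with an unadjusted p of 0.0220 and an adjusted p of 0.222 by edgeR. It fell with upper quartile or total count scaling and with the 5 CPM filter (adjusted p 0.0328, 0.0447 and 0.0230), and it passed in none of the 6 fits with 1 library left out. AhcyL2 was at 31.5, 31.4 and 34.6 CPM in wBerlin and 31.9, 29.4 and 34.7 CPM in Kdm3 KO. Its groups overlapped, and the 95% interval of its fold change ran from 0.846 to 1.15 (adjusted p = 0.955, edgeR).

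A ratio of 2 genes within a library does not depend on the scaling, and that of Ahcy to AhcyL1 was higher in all 3 knockout libraries than in any control library. The log2 ratio of Ahcy to AhcyL1 was −1.52, −1.40 and −1.72 in wBerlin and −0.76, −0.88 and −0.57 in Kdm3 KO, with no overlap. The mean difference of 0.81 corresponds to a 1.75-fold change of the ratio. An exact two-sided permutation test over the 6 libraries gave p = 0.1, the smallest it can give with 3 against 3, and 0.167 after adjustment over the 5 ratios compared. The log2 ratio of Ahcy to AhcyL2 was 0.04 ± 0.28 in wBerlin and 0.61 ± 0.16 in Kdm3 KO (SD, n = 3), again without overlap (exact permutation p = 0.1, adjusted 0.167). Per kilobase of exon, Ahcy made up 25.2%, 26.5% and 21.7% of the summed level of the 3 genes in wBerlin and 34.7%, 32.4% and 37.4% in Kdm3 KO.

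The log2 ratio of Sam-S, which makes SAM, to Ahcy, which clears its spent form, was 3.31 ± 0.14 in wBerlin and 3.18 ± 0.15 in Kdm3 KO (SD, n = 3), the libraries of the groups overlapped, and the difference of −0.13 was within the spread between libraries (exact permutation p = 0.4). With 3 libraries a side this does not show that the ratio is the same.

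SAM decarboxylation is catalysed by SamDC (FBgn0019932, arm 2L, 10339457 to 10341503), whose product supplies the aminopropyl groups of spermidine and spermine. It was at 23.7, 24.5 and 23.9 CPM in wBerlin and 39.2, 29.1 and 36.9 CPM in Kdm3 KO. The control libraries lay within 1 CPM of each other, and the knockout libraries were all higher. It rose 1.46-fold (95% interval 1.21 to 1.75, adjusted p = 0.0436, edgeR). The log2 ratio of Sam-S to SamDC differed by −0.12 between the groups, with overlapping libraries (exact permutation p = 0.2, adjusted 0.25).

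Homocysteine remethylation is represented by 2 neighbouring genes on the minus strand of arm 2L, CG10621 (FBgn0032726, 18952206 to 18954431), a predicted homocysteine S-methyltransferase, and Bhmt (FBgn0032727, 18955481 to 18957311), named for betaine-homocysteine methyltransferase. They lie 1049 bases apart and their longest annotated coding sequences have the same length, 331 codons. CG10621 was at 74.6, 75.3 and 65.3 CPM in wBerlin and 164, 118 and 180 CPM in Kdm3 KO. Even the lowest knockout library was 1.57 times the highest control library. It rose 2.15-fold (log2 fold change 1.11, SE 0.15, 95% interval 0.77 to 1.44, adjusted p = 0.00539, edgeR), and by 0.98 to 1.27 on the log2 scale with 1 library left out.

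Bhmt lay on the other side of 0 from its neighbour. It was at 34.4, 38.3 and 39.7 CPM in wBerlin and 30.1, 29.6 and 35.9 CPM in Kdm3 KO, with overlapping groups, since Kdm3 KO replicate 3 exceeded wBerlin replicate 1. The log2 fold change was −0.23 (95% interval −0.48 to 0.01, adjusted p = 0.368, edgeR), and it passed in none of the 15 other settings. The intervals of the 2 genes do not meet. Per kilobase of exon, CG10621 made up 71.1%, 69.1% and 65.1% of the pair in wBerlin and 86.1%, 82.0% and 85.1% in Kdm3 KO, a share chosen for description after the values were seen and not tested. The sources used here do not say how the authors' counting treated reads that match both genes.

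Transsulfuration begins with Cbs (FBgn0031148, arm X, 21045138 to 21049096), the cystathionine beta-synthase that condenses homocysteine with serine. It was at 31.9, 37.6 and 30.5 CPM in wBerlin and 43.5, 31.9 and 42.9 CPM in Kdm3 KO. Kdm3 KO replicate 2 lay inside the control range, and the other knockout libraries lay above it. The log2 fold change of 0.24 (95% interval −0.06 to 0.55) did not pass (adjusted p = 0.486, edgeR), nor did it without Kdm3 KO replicate 2 (0.38, adjusted p = 0.0937). The log2 ratio of the remethylation gene CG10621 to Cbs was 1.23, 1.00 and 1.10 in wBerlin and 1.92, 1.89 and 2.07 in Kdm3 KO. The difference of 0.85 is large beside SDs of 0.11 and 0.10 (n = 3 each, exact permutation p = 0.1, the smallest possible, adjusted 0.167).

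Methionine salvage is represented by Adi1 (FBgn0052068, arm 3L, 10663376 to 10664435), an acireductone dioxygenase that forms the keto acid precursor of methionine. It was at 30.0, 29.9 and 27.9 CPM in wBerlin and 49.0, 35.9 and 47.1 CPM in Kdm3 KO. All knockout libraries were higher than all controls, and it rose 1.50-fold (95% interval 1.24 to 1.82, adjusted p = 0.0355, edgeR).

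Adenosine removal is the role of Adk2 (FBgn0036337, arm 3L, 13019715 to 13022688), an adenosine kinase that forms AMP. It was at 62.8, 64.5 and 61.0 CPM in wBerlin and 104, 75.9 and 101 CPM in Kdm3 KO. It rose 1.49-fold (95% interval 1.23 to 1.81, adjusted p = 0.0381, edgeR) with no overlap between the groups. Adi1, SamDC and Adk2 had nearly the same profile, at 1.68, 1.63 and 1.66 times the wBerlin mean in Kdm3 KO replicate 1, 1.23, 1.21 and 1.21 times in replicate 2, and 1.61, 1.53 and 1.60 times in replicate 3.

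**Figure D2:**
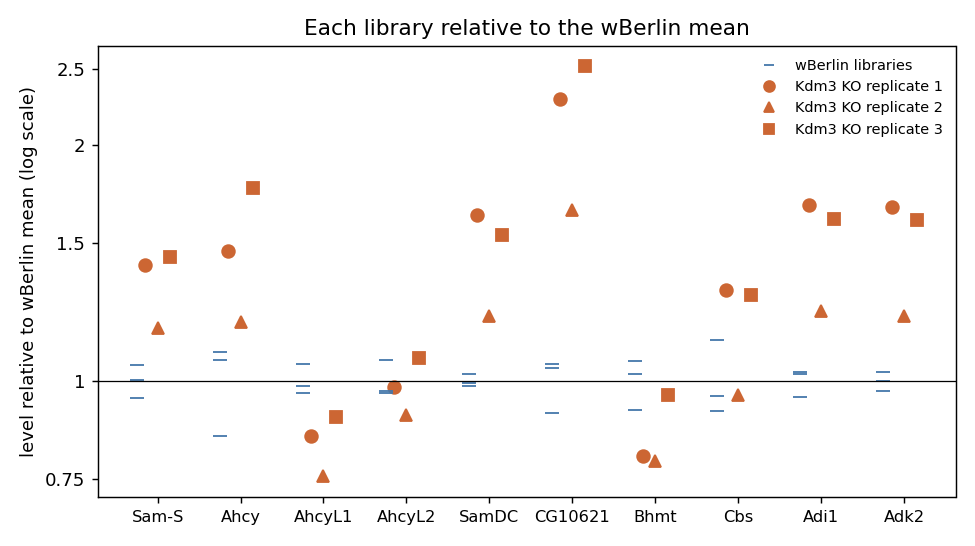
Level of each gene in each library divided by its wBerlin mean (vertical log axis), with dashes for the wBerlin libraries and filled symbols for the Kdm3 KO libraries. Knockout replicate 2 lies nearest the controls for the genes that rose, at 1.65 for CG10621 against 2.29 and 2.52 in replicates 1 and 3.

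How the knockout libraries varied depended on the scaling. With TMM the coefficient of variation was larger in Kdm3 KO for 10 of the 10 genes, beside 69.7% of all tested genes. With total count scaling it was larger for 4, the called genes CG10621, Adi1, SamDC and Adk2, beside 59.5% of tested genes. With TMM, Kdm3 KO replicate 2 was the lowest knockout library for 10 of 10, beside 48.2% of tested genes. It was lowered by TMM relative to total counts, with all genes summing to 1016700, 910410 and 1061800 CPM in Kdm3 KO replicates 1 to 3. With total count scaling it was the lowest for 8 of the 10, the exceptions being AhcyL2 and Bhmt. The share over all tested genes was not computed for that scaling, so whether 8 of 10 is particular to these genes is not known. That library also carries the excess of gut and flight muscle transcripts given above. Without it 6 of the 10 genes rose and 0 fell, where 4.05% of the 14160 genes then tested rose and 1.07% fell. The median log2 fold change was then 0.59, beside −0.0061 over all genes. Its part in the lower levels was not tested.

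Levels per kilobase used the union of exons over all annotated transcripts (12 for Sam-S and 1 for Adi1), and the order of genes depends on that length. Compared in this way, Sam-S was the most abundant of the 10 transcripts in wBerlin at 93.4 ± 4.47 CPM per kb (SD, n = 3), followed by CG10621 at 47.2 ± 3.66 and Adi1 at 41.7 ± 1.65. Adk2 and AhcyL1 came next at 32.9 ± 0.926 and 32.3 ± 1.43 and overlapped each other. Bhmt and SamDC followed with 21.7 ± 1.60 and 19.7 ± 0.334, again overlapping, and AhcyL2, Ahcy and Cbs were lowest at 16.5 ± 0.919, 15.9 ± 2.07 and 15.1 ± 1.70, with neighbours in that order overlapping. In Kdm3 KO the order opened in the same way, Sam-S at 124.9 ± 13.7, CG10621 at 101.6 ± 21.2, Adi1 at 62.8 ± 10.1 and Adk2 at 49.2 ± 8.14 CPM per kb, with Adi1 and Adk2 overlapping. CG10621 now overlapped Sam-S across libraries, which it had not done in the controls. Within each knockout library Sam-S still lay above CG10621, and Adi1 above Adk2. In replicate 2, where Sam-S was lowest at 109 CPM per kb, CG10621 was at 77.9. Below these, from SamDC at 28.6 ± 4.32 through AhcyL1, Ahcy, Bhmt and Cbs to AhcyL2 at 16.3 ± 1.36, every gene overlapped the next.

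**Figure D3:**
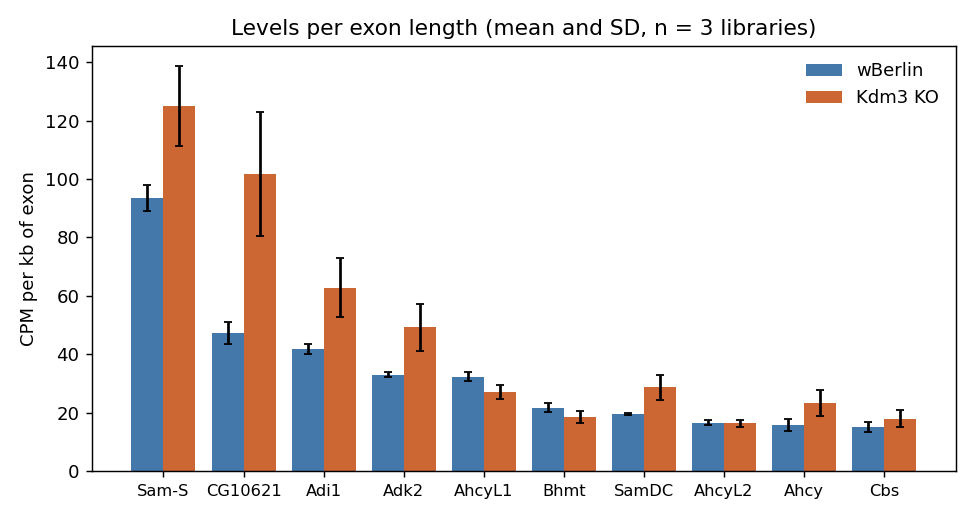
Mean TMM-scaled CPM per kilobase of annotated exon (vertical axis, from 0) for the 10 genes in wBerlin and Kdm3 KO, ordered by the wBerlin level, with SD over 3 libraries. The bar of CG10621 moves from 47.2 to 101.6 CPM per kb and approaches that of Sam-S.

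Of 28 other genes of the pathway, all tested, 7 rose in Kdm3 KO and 0 fell (DESeq2 gave 11 and 0, limma voom 7 and 0, and edgeR without adjustment 14 and 0), with a median log2 fold change of 0.37. Over all tested genes 2.15% rose and 0.917% fell by edgeR, 4.65% and 3.64% by DESeq2, 1.99% and 0.782% by limma voom, and 7.14% and 7.51% without adjustment, and the median was 0.04. Those that rose were Gnmt, Sardh, Shmt, Mthfs, CG8665, pug and Adgf-D. Of these, pug, Gnmt and Adgf-D lie on arm 3R at 1.176, 3.154 and 4.182 Mb from Kdm3, and the others lie on other arms. For those on 3R, a difference between the stocks that is linked to Kdm3 cannot be told apart from its loss. Of the 10 members only AhcyL2 lies on 3R, 7.458 Mb from Kdm3. Gnmt, glycine N-methyltransferase, which consumes SAM to methylate glycine, was at 9.84, 11.0 and 5.13 CPM in wBerlin and 139, 97.9 and 195 CPM in Kdm3 KO (log2 fold change 4.04, adjusted p = 0.000448, edgeR). Per kilobase Gnmt lay below Sam-S in wBerlin, at 9.94, 11.1 and 5.18 against 97.7, 93.6 and 88.8 CPM per kb. In Kdm3 KO it was at 140, 98.9 and 197 against 131, 109 and 134 CPM per kb, so the genes overlapped, with Gnmt below Sam-S in replicate 2. Sardh, which demethylates the sarcosine that Gnmt makes, had a log2 fold change of 1.48 (adjusted p = 0.0050, edgeR).

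The folate list, whose enzymes carry the one-carbon units, had 4 of 7 members that rose, beside 2.15% of tested genes: Shmt, Mthfs, CG8665 and pug, at log2 fold changes of 1.64, 1.28, 1.12 and 1.08. CG7560, a methylenetetrahydrofolate reductase, was at 13.9, 13.8 and 12.2 CPM in wBerlin and 20.0, 15.5 and 23.0 CPM in Kdm3 KO, without overlap. It did not pass (log2 fold change 0.55, adjusted p = 0.0863, edgeR).

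Of the 9 salvage and polyamine genes beside Adi1 and SamDC, 0 passed by edgeR or limma voom (2.15% and 1.99% of tested genes rose) and 1 rose by DESeq2 (4.65%), each at an adjusted p under 0.05. By edgeR 4 of them were higher at an unadjusted p under 0.05, beside 7.14% of tested genes. In 3 every knockout library exceeded every control library, beside 9.35%. Odc1, ornithine decarboxylase, came closest, at 24.9, 22.6 and 20.7 CPM in wBerlin and 34.0, 28.4 and 32.1 CPM in Kdm3 KO (log2 fold change 0.47, adjusted p = 0.0541). Mtap, the methylthioadenosine phosphorylase that opens the salvage pathway, had a log2 fold change of 0.32 (adjusted p = 0.312), and Enoph, a later salvage enzyme, 0.31 (adjusted p = 0.285). SpdS, spermidine synthase, lies 0.111 Mb from Kdm3 and had a log2 fold change of 0.27 (adjusted p = 0.569).

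Of 5 other genes of adenosine handling 1 rose, beside 2.15% of tested genes. Adgf-D, a member of the adenosine deaminase-related growth factor family, was at 68.4, 59.2 and 57.3 CPM in wBerlin and 116, 86.5 and 113 CPM in Kdm3 KO (log2 fold change 0.77, adjusted p = 0.0118, edgeR). The adenosine kinase gene Adk3 had a log2 fold change of −0.14 (adjusted p = 0.560) against 0.58 for Adk2. Cth, the cystathionine gamma-lyase that follows Cbs, had 0.13 (adjusted p = 0.661), Samtor, a SAM sensor of the TOR pathway, −0.13 (adjusted p = 0.731), and CG4743, listed by RefSeq with the synonym Samc, 0.06 (adjusted p = 0.862). Of the 2 methionine sulfoxide reductase genes, MsrA had 0.42 (adjusted p = 0.0643) and SelR −0.13 (adjusted p = 0.582).

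**Figure D4:**
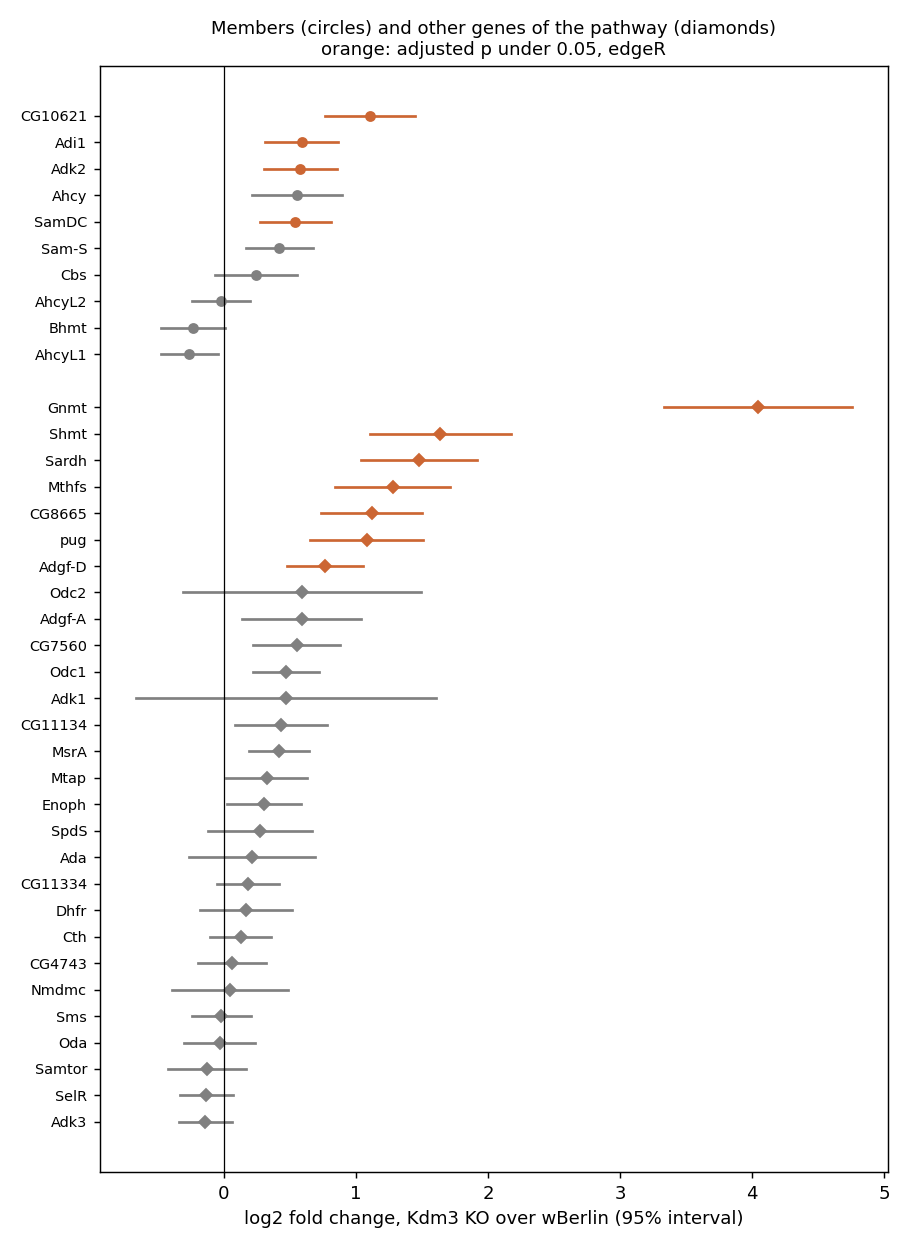
Log2 fold change of Kdm3 KO over wBerlin (horizontal axis) with its 95% interval for the 10 members (circles) and 28 other pathway genes (diamonds), orange where the adjusted p was under 0.05. The members run from −0.26 for AhcyL1 to 1.11 for CG10621, and Gnmt stands apart at 4.04.

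Markers of other cell types moved between the groups as well, and their counts stand beside shares of all tested genes that rose and fell of 2.15% and 0.917% by edgeR, 4.65% and 3.64% by DESeq2, and 1.99% and 0.782% by limma voom. Of 16 fat body markers 14 were tested, 4 rose (Fbp2, Apoltp, Pepck2 and Ilp6, with 6 by DESeq2 and 3 by limma voom), and apolpp and Pepck1 were listed at 0 in every library. The 301 genes placed outside arms 2L, 2R, 3L, 3R and X had a total of 0 counts. A listed 0, here or for bt below, therefore need not mean absent expression. At an unadjusted p under 0.05 by edgeR, 9 of the 14 were higher and 0 lower, beside 7.14% and 7.51% of tested genes. Log2 fold changes were positive in 10 of the 14 and negative in Lsp2, Lsd-1, Lsd-2 and NLaz (−0.10, −0.003, −0.009 and −0.22). The 16 listed summed to 5205, 5468 and 4050 CPM in wBerlin and 7401, 5552 and 9308 CPM in Kdm3 KO, 1.51-fold higher on the mean. Kdm3 KO replicate 2 was again the lowest knockout library. Tsf1 had the largest difference of means in this sum, 1211 against 2591 CPM, and was not called (adjusted p = 0.0806, edgeR). Ahcy and CG10621 had the same order of the 6 libraries as this sum, which 160 tested genes (1.14%) had. In the sum every knockout library exceeded every control library. Only genes without such overlap, 6 of the 10 and 1315 of all tested genes, could share its order. The share over all tested genes is therefore not a like comparison for the 10. Of 18 tested muscle markers 1 fell, Act87E (6 fell by DESeq2), and the summed level of the 19 listed, among which bt was at 0 in every library, ranged from 28461 to 50812 CPM in wBerlin and from 22260 to 32252 CPM in Kdm3 KO. At an unadjusted p under 0.05 by edgeR, 10 of the 18 were lower and 2 higher, beside 7.51% and 7.14% of tested genes. Positive log2 fold changes were seen in 3 of the 18, the flight muscle genes TpnC4, Act88F and fln, at 3.93, 1.68 and 2.96. These did not pass (adjusted p 0.238, 0.632 and 0.196, edgeR) and were high in Kdm3 KO replicate 2. Of 13 neuron and eye markers 1 fell, Rh5. Of 6 glia markers 0 passed by edgeR or limma voom, and 1 rose by DESeq2. By edgeR 1 was higher at an unadjusted p under 0.05, beside 7.14% of tested genes. Of 15 tested gut markers 2 rose (Amy-p and Amy-d), and of 9 hemocyte markers 1 rose (PPO1). Without adjustment 4 of these gut markers and 3 of these hemocyte markers were higher, and 0 of either list were lower. The part of these cell types in the levels of the 10 genes was not tested.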

How the data were processed

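The authors deposited raw read counts per gene for 6 libraries. Per the submitters' processing notes, the tools were STAR, SAMtools, HTSeq and DESeq2 and the build BDGP6; their roles, versions, settings, annotation and strand are not given in the sources available. Symbols and positions came from Ensembl (BDGP6.54) and RefSeq (17626 of 17753 identifiers matched).

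The two-sided quasi-likelihood test of edgeR 4.0.16 (R 4.3.3) was run on all 6 libraries after filterByExpr and TMM scaling, with genotype in the model and no other term. P-values were adjusted by Benjamini-Hochberg over 14069 genes, with a threshold of 0.05. Every adjusted p is from this fit unless another is named. The biological coefficient of variation was 18.2%. The code was tested on simulated data. A count of 0 would allow up to 0.106 to 0.151 CPM (3 counts, counting error only), provided that the gene was counted at all. Between libraries of 1 group the chi-square over its degrees of freedom was 15.4 to 60.2, so none was counted as a copy. Ratios were tested by exact permutation (SciPy 1.17.1). Levels per kilobase used the union of annotated exons, which can exceed the length of the transcripts present, so comparisons between genes depend on it.

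The members, lists, ratios and alternatives were chosen with earlier results of these data known. Named genes were all members, Kdm3, called pathway genes, and the 3 genes nearest to Sam-S in profile among those averaging 10 CPM or more; other pathway genes and markers were named after their values were seen. Of 31 pathway symbols listed beside the members, 28 were used, since CG10623 and CG11255 are older names of Bhmt and Adk2, and Ady43A is one of Adk3. Alternatives were other scalings, filters and tools, a replicate block and leaving out each library; DESeq2 was version 1.42.0 and limma 3.58.1.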

Additional observations from a re-analysis of the deposited data

How the results depend on the processing

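Directions of 9 of the 10 members were the same in all 15 alternatives; AhcyL2 turned from −0.0199 to 0.0426 without Kdm3 KO replicate 2 (range −0.0961 to 0.0426 with 1 library left out) and to 0.0161 in the 4 libraries left without it and wBerlin replicate 1, a fit added after the data were seen. Of the members, 4 rose in the main fit and 1 to 6 with 1 library left out; 0 fell, and 0 with a library left out, but 1 (AhcyL1) with upper quartile or total count scaling and with the 5 CPM filter. The 1 that kept its call without any library was CG10621. Of the 28 other pathway genes, 7 rose, 6 to 12 with 1 library left out, 11 by DESeq2 and 12 in the 4 libraries, and 0 fell in each. Over all genes 432 were called (303 rose and 129 fell of 14069), and 243 to 735 with 1 library left out. With 1 library left out 181 to 574 rose and 62 to 467 fell, of 14160 to 14532 genes tested. Upper quartile and total count scaling gave 424 and 451 that rose and 212 and 167 that fell, of 14069. The 5 CPM filter called 747 (473 rose and 274 fell of 8601) and DESeq2 916 (514 and 402 of 11052). The replicate block called 779 (417 and 362 of 14069) and the 4 libraries 1082 (606 and 476 of 14025). The cause was not tested. The replicate block left 4 members higher and 0 lower. The numbers paired the libraries only in part: deviations of replicates 1, 2 and 3 correlated across genotypes at 0.37, 0.22 and −0.02. Replicates 1 and 2 were closest to their own number, and replicate 3 was not. Log2 differences of the ratios spanned 0.72 to 0.89 (Ahcy to AhcyL1), 0.41 to 0.66 (Ahcy to AhcyL2), −0.19 to −0.05 (Sam-S to Ahcy), −0.15 to −0.07 (Sam-S to SamDC) and 0.79 to 0.91 (CG10621 to Cbs) with 1 library left out. The calls nearest the threshold were those of Adi1, Adk2 and SamDC, at log2 fold changes of 0.59, 0.58 and 0.54.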
